A study of Homo sapiens with 6 samples.

Results

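TXNIP, its relatives among the alpha-arrestins, the transcription factor pair that drives TXNIP, its partner thioredoxin and 2 glucose transporters were followed in cells in which SHCBP1 was knocked down. The group was named as 10 genes: TXNIP, ARRDC1, ARRDC2, ARRDC3, ARRDC4, MLX, MLXIP, TXN, SLC2A1 and SLC2A3. A probe set, a group of array probes that together give 1 value, was assigned to a member where the platform annotation names that gene alone. By this rule 32 probe sets represented 9 of the 10 members, out of 18132 genes with such a probe set. For SLC2A3 there were 0: each of its 5 probe sets also names its near-identical neighbour SLC2A14, so these are given apart. The members were chosen with their values in this comparison already known. Their differences are therefore a description of these arrays and are given without p-values.

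The study put an shRNA against SHCBP1 (3 arrays) or a control shRNA (3 arrays) into TPC-1 cells by lentivirus, and hybridised total RNA to Affymetrix arrays. TPC-1 is an established line from a human papillary thyroid carcinoma, and SHCBP1 is a partner of the adaptor protein SHC1. Both groups share the line, the medium with serum and the lentiviral delivery. The labels give no time after infection, no clone number and no further hairpin, so what the hairpin does through SHCBP1 and what it does otherwise cannot be told apart. In the extraction protocol the cells are called DLD1, which is a line from a colorectal carcinoma. Each probe set was centred on its median over the 6 arrays before deposit, so no expression level remains and the labelled cell type could not be checked against the level of its markers. In these bulk RNA samples fewer cells expressing a gene and less RNA of it per cell cannot be told apart. Independent samples are stated but not separate cultures, so the errors measure the spread between these arrays, which may be technical.

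TXNIP is an alpha-arrestin that sits between glucose supply and redox control. It binds reduced thioredoxin, the product of TXN, and it promotes the removal of glucose transporters from the cell surface, which restrains glucose uptake. MondoA, the product of MLXIP, pairs with MLX and moves to the nucleus when glucose-6-phosphate accumulates. There the pair binds carbohydrate response elements, which are E-box motifs in tandem, in front of TXNIP and ARRDC4. Tumour cells are known to keep TXNIP low while they take up much glucose.

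The upstream sequences of the members show where such motifs lie, and are printed for the 2 known MondoA targets, for MLX, which has an E-box of its own, and for SLC2A1, which has none. They are the 250 bases before an annotated start in RefSeq (GRCh38.p14), 5′ to 3′ on the gene's strand. Of the members, 9 had an entry, with 12 start sites. TXNIP has 2 start sites and the sequence of the first is shown, chr1:145996580-145996829 on the minus strand. ARRDC4 lies at chr15:97960453-97960702 on the plus strand, MLX at chr17:42566850-42567099 on the plus strand and SLC2A1 at chr1:42958869-42959118 on the minus strand. Capitals mark an E-box (CACGTG, a palindrome) or the tandem pair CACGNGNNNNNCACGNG, searched on both strands.
TXNIP: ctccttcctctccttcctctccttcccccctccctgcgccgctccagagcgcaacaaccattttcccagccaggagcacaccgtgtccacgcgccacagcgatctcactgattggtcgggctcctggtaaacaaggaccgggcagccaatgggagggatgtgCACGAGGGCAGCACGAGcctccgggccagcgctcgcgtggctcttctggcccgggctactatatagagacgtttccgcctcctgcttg
ARRDC4: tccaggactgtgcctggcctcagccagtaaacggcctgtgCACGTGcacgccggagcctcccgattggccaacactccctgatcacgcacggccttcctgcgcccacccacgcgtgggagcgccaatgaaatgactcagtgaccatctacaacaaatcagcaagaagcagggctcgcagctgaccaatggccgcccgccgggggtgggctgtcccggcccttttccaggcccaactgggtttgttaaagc
MLX: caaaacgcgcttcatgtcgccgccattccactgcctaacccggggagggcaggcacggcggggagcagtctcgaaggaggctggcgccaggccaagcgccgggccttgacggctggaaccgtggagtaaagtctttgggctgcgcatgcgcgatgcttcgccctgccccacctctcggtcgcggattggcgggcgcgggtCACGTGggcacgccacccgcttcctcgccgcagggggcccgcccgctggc
SLC2A1: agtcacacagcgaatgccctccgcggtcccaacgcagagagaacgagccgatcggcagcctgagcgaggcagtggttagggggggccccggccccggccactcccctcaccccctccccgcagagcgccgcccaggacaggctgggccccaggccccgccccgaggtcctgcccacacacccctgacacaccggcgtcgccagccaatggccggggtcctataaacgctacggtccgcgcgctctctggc

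The tandem pair in front of TXNIP, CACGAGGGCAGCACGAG, starts 88 bases before the annotated start. This relaxed form, written with the TXNIP sequence in view, was found in 16 of 35116 upstream windows of the same length (0.0456%), and TXNIP was the 1 member that held it. The exact pair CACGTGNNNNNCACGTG was found in 1 window of 35116 and in 0 members. An E-box alone was found in 6.34% of all windows and in 2 members, ARRDC4 at 210 bases and MLX at 50 bases before the start. Its relaxed form CACGNG was found in 26.7% of all windows and in 6 members: TXNIP, ARRDC2, ARRDC3, ARRDC4, MLX and TXN. No binding was measured in this study, and a match is a match of letters only.

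SHCBP1 itself had centred log2 values of -0.95, -0.76 and -0.72 in the SHCBP1 shRNA arrays, against 0.72, 0.76 and 0.71 in the control shRNA arrays. Every knockdown array lay below every control array, so the labels and the target go together. Changes were widespread: limma, a linear model with moderated errors, called 41.0% of all genes (Benjamini-Hochberg adjusted p, threshold 0.05), of which the higher ones made up 22.0% of all genes and the lower ones 19.0%. In 50.0% of genes the 2 groups did not overlap. Of 9 members measured, 6 were called lower and 2 higher, and in 8 the groups did not overlap. Called and at least 2-fold apart were 2 members, TXNIP and SLC2A1, where 1.22% of all genes were. In a fit of all probe sets, which called 38.0% and in which 48.1% had groups without overlap, 26 of the 32 member probe sets were called and 27 had no overlap. These counts stand beside the background shares as a description, since the comparison itself chose the genes. The median difference was -0.47 log2 over the members and 0.02 over all genes. Control transcripts with poly-A tails that are added to each sample gave 0.43 ± 0.04 log2 (SE) more signal with SHCBP1 shRNA than with control shRNA. This is a mean of 24 probe sets, whose differences ran from 0.19 to 0.65 log2. For 28S ribosomal RNA the 5′ probe set gave 2.80 ± 0.03 log2 (SE) more. Their part in the differences was not tested, and each difference is measured against the bulk of the genes. The plot of values by array shows the members side by side.

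**Figure D1:**
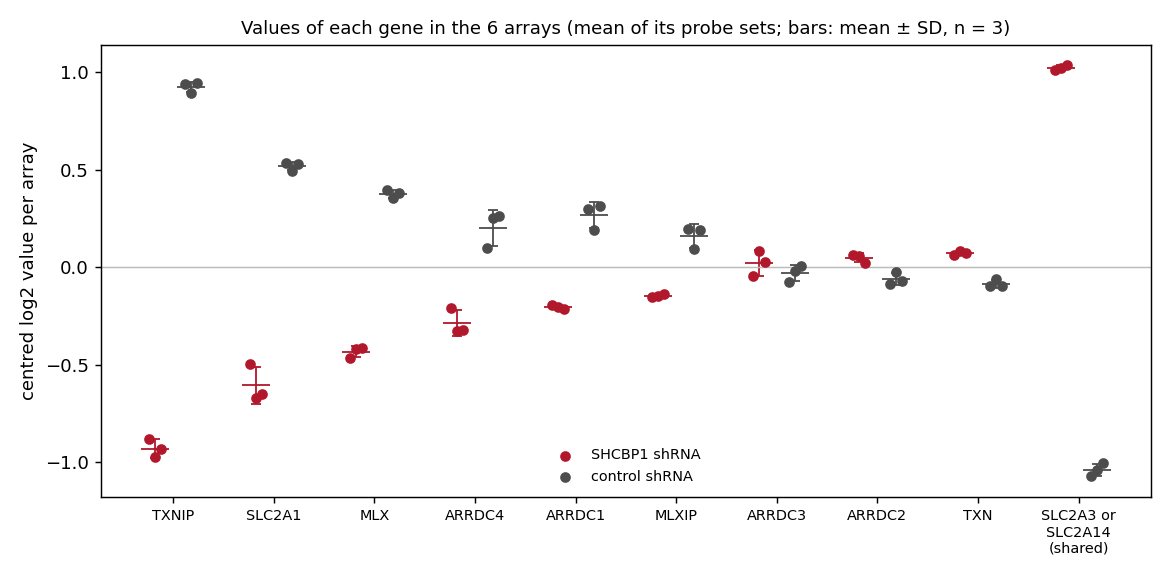
Centred log2 value (vertical axis) of each gene in the 3 SHCBP1 shRNA arrays (red) and the 3 control shRNA arrays (grey), as the mean of its probe sets, with group mean ± SD. TXNIP shows the widest gap among the genes that were lower in SHCBP1 shRNA arrays, and the probe sets shared by SLC2A3 and SLC2A14 show a gap of the opposite direction, with means of 1.02 and -1.04.

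TXNIP stood at -0.88, -0.98 and -0.93 (centred log2) in the SHCBP1 shRNA arrays, against 0.94, 0.89 and 0.94 in the control shRNA arrays. The arrays of each group lay close together and the groups were far apart. The difference was -1.86 ± 0.04 log2 (SE, n = 3 per group), with a 95% confidence interval of -1.94 to -1.77, a 3.62-fold lower value in SHCBP1 shRNA arrays. Only 9 of 18132 genes had a lower difference. All 5 of its probe sets were called lower, where 18.1% of all probe sets were. Their differences ran from -2.03 to -1.63 log2, and the probe set with the smallest fall (11756431_s_at) still lay more than 3 times further from 0 than those of ARRDC4. All TXNIP probe sets but 11748543_a_at (-1.97 log2) end in _s_at, an ending for probes that other transcripts may share. Leaving out any 1 array kept the difference between -1.88 and -1.83.

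Genes whose 6 values were most like those of TXNIP were found by the root mean square difference over the 6 arrays, among all genes that are not members. The closest was APLP2, a relative of the amyloid precursor protein, at 0.03 log2 from TXNIP. PARK7, which encodes the redox-sensitive protein DJ-1, followed at 0.04. GNPNAT1 of UDP-N-acetylglucosamine synthesis lay at 0.05, and PLPBP, which binds pyridoxal phosphate, and PDCD4, an inhibitor of translation, lay at 0.06 each. Their differences ran from -1.90 log2 for PDCD4 to -1.76 log2 for PLPBP. This likeness is a description over 6 arrays in 2 groups, which share the same contrast.

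Among the other alpha-arrestins, which act as adaptors that bring ubiquitin ligases to membrane proteins, ARRDC4 was lower in SHCBP1 shRNA arrays. It is the other alpha-arrestin known as a target of MondoA. Its values were -0.21, -0.33 and -0.32 in the SHCBP1 shRNA arrays, against 0.10, 0.25 and 0.26 in the control shRNA arrays. Control replicate 1 lay nearest to the knockdown arrays, without overlap. The difference was -0.49 ± 0.06 log2 (SE, 95% confidence interval -0.62 to -0.35), 1.40-fold, and its 3 probe sets gave -0.52, -0.52 and -0.42. The fall was 1.40-fold for ARRDC4 against 3.62-fold for TXNIP, a description of different probe sets and no test between these genes.

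ARRDC1, known for budding of vesicles from the plasma membrane, was also lower in SHCBP1 shRNA arrays. It had -0.19, -0.20 and -0.21 in the SHCBP1 shRNA arrays, against 0.30, 0.19 and 0.32 in the control shRNA arrays, with no overlap. The difference was -0.47 ± 0.04 log2 (SE), 1.39-fold. This value rests on 1 probe set, 11756644_x_at, whose ending marks probes that may also match other transcripts.

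ARRDC2 and ARRDC3 stayed near 0. ARRDC3, which takes part in the trafficking of beta-adrenergic receptors, had -0.05, 0.08 and 0.03 in the SHCBP1 shRNA arrays, against -0.07, -0.02 and 0.01 in the control shRNA arrays. The groups overlapped, and the difference of 0.05 ± 0.04 log2 (SE, 95% confidence interval -0.05 to 0.16) was not called. Its 3 probe sets gave -0.08, 0.07 and 0.16, and 1 of them was called higher. ARRDC2 had 0.06, 0.06 and 0.02 in the SHCBP1 shRNA arrays, against -0.09, -0.02 and -0.07 in the control shRNA arrays. The difference of 0.11 ± 0.03 log2 (SE) was called higher in the fit of genes but not in the fit of probe sets, from the same 1 probe set. Without SHCBP1 shRNA replicate 1, 2 or 3 it was 0.10, 0.10 and 0.12, and without control replicate 1 or 3 it was 0.10 and 0.10, and each time the call was lost. It was also lost with the replicate number as a block (0.11) and with _s_at and _x_at probe sets left out (0.11). The 2 alpha-arrestins that were lower by more than 0.4 log2 after TXNIP thus sat beside 2 that differed by about 0.1 log2 or less.

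**Figure D2:**
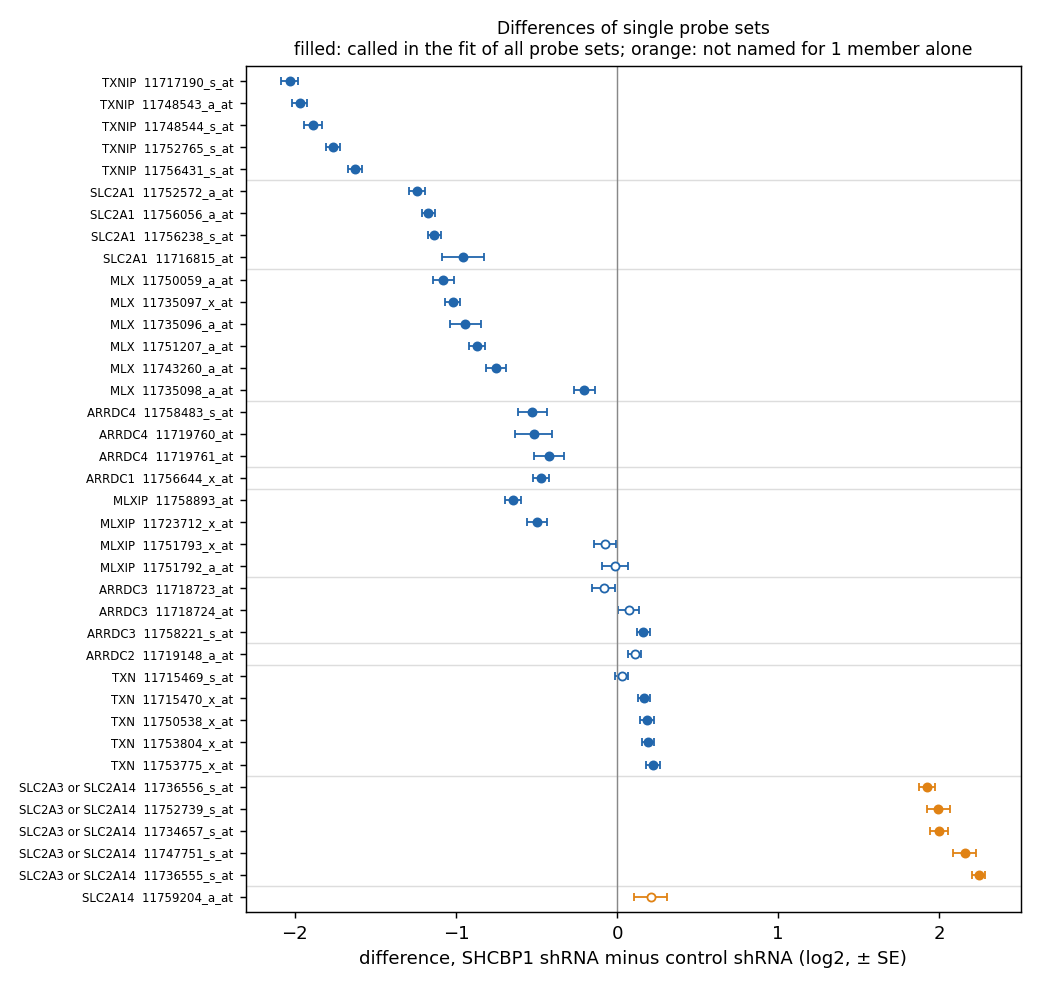
Difference (SHCBP1 shRNA minus control shRNA, log2, ± SE) of each member probe set on the horizontal axis, grouped by gene. Filled points were called in the fit of all probe sets, and orange points are probe sets that do not name 1 member alone. Probe sets of TXNIP run from -2.03 to -1.63, those of SLC2A1 from -1.24 to -0.96 and those of ARRDC4 from -0.52 to -0.42. MLX has 1 probe set at -0.20 and MLXIP has 2 near 0.

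Both genes of the transcription factor pair were lower. MLX, the partner that MondoA needs to bind DNA, had -0.47, -0.42 and -0.41 in the SHCBP1 shRNA arrays, against 0.39, 0.35 and 0.38 in the control shRNA arrays. No array of one group came near the other group, and its spread within groups was among the smallest 9.47% of all genes. The difference was -0.81 ± 0.03 log2 (SE, 95% confidence interval -0.89 to -0.73), a 1.75-fold fall. Its 6 probe sets were all called lower, but unevenly: 5 gave -1.08 to -0.75 and 1 (11735098_a_at) gave -0.20 log2.

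MLXIP, which encodes MondoA, had -0.15, -0.15 and -0.14 in the SHCBP1 shRNA arrays, against 0.20, 0.09 and 0.19 in the control shRNA arrays. The groups were separate. The mean difference of -0.31 ± 0.04 log2 (SE), 1.24-fold, joins 2 kinds of probe set. The probe sets 11758893_at and 11723712_x_at gave -0.65 and -0.50 and were called lower. The other 2 (11751793_x_at and 11751792_a_at) gave -0.07 and -0.01, with overlapping groups. Which transcripts each of them reads was not analysed here.

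Thioredoxin, the small redox protein that TXNIP binds, moved little. TXN had 0.06, 0.09 and 0.07 in the SHCBP1 shRNA arrays, against -0.10, -0.06 and -0.10 in the control shRNA arrays. The groups did not overlap and the spread within groups was among the smallest 2.86% of all genes. The difference of 0.16 ± 0.03 log2 (SE), 1.12-fold, was called higher, and its 5 probe sets gave 0.03 to 0.22. All of them end in _s_at or _x_at, so none is free of probes that other transcripts may share.

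SLC2A1, which encodes the basal glucose transporter GLUT1, fell with TXNIP. Its values were -0.50, -0.67 and -0.65 in the SHCBP1 shRNA arrays, against 0.54, 0.50 and 0.53 in the control shRNA arrays. SHCBP1 shRNA replicate 1 lay highest of the knockdown arrays, still about 1 log2 unit below each control. The difference was -1.13 ± 0.05 log2 (SE, 95% confidence interval -1.25 to -1.01), 2.18-fold. All 4 probe sets were called lower, at -1.24, -1.17, -1.13 and -0.96 log2.

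The other transporter of the group went the opposite way as far as the arrays can tell. SLC2A3 encodes GLUT3, a high-affinity glucose transporter, and SLC2A14 is its close copy. The mean of the 5 probe sets that name both was 1.01, 1.02 and 1.04 in the SHCBP1 shRNA arrays, against -1.07, -1.04 and -1.01 in the control shRNA arrays. All knockdown arrays lay about 2 log2 units above all control arrays. The difference was 2.06 ± 0.02 log2 (SE of the difference of group means, n = 3), 4.18-fold higher in SHCBP1 shRNA arrays. Of 18132 genes, 3 had a higher difference. All 5 probe sets were called higher, from 1.92 to 2.24 log2, where 19.9% of all probe sets were. The 1 probe set that names SLC2A14 alone gave 0.21 ± 0.10 log2 (SE), with overlapping groups, and was not called. How much of the signal belongs to each of the 2 genes was not tested.

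**Figure D3:**
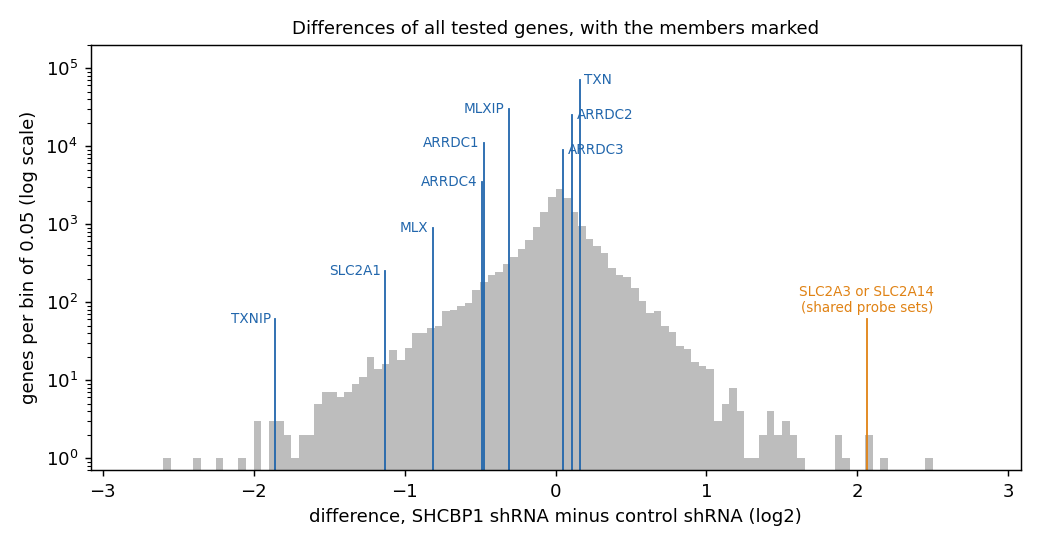
Number of genes (vertical axis, log scale) by difference between SHCBP1 shRNA and control shRNA arrays (log2), for all 18132 genes. Lines mark the members, and their heights carry no value: TXNIP at -1.86 lies in the far lower tail, while the probe sets shared by SLC2A3 and SLC2A14 lie at 2.06 in the upper tail.

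The falls kept their direction and call under each of the 3 rescalings that were tried, but the small rises did not: ARRDC2 lost its call under repeated quantile normalization (0.09) and centring of arrays (0.10), and TXN and ARRDC2 changed sign under scaling to spike-in controls. Scaling the arrays to the poly-A controls moves the median of all genes to -0.41 log2, against 0.02 in the deposited values. TXNIP was then at -2.29, SLC2A1 at -1.56, MLX at -1.24, ARRDC4 at -0.92, ARRDC1 at -0.91 and MLXIP at -0.74 log2. TXN stood at -0.27, ARRDC2 at -0.32 and ARRDC3 at -0.38. With this scaling all 9 members were called lower, as were 16268 of 18132 genes. The probe sets shared by SLC2A3 and SLC2A14 were still higher, at 1.63 log2. The order of the members was the same, since this scaling shifts all genes alike.

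**Figure D4:**
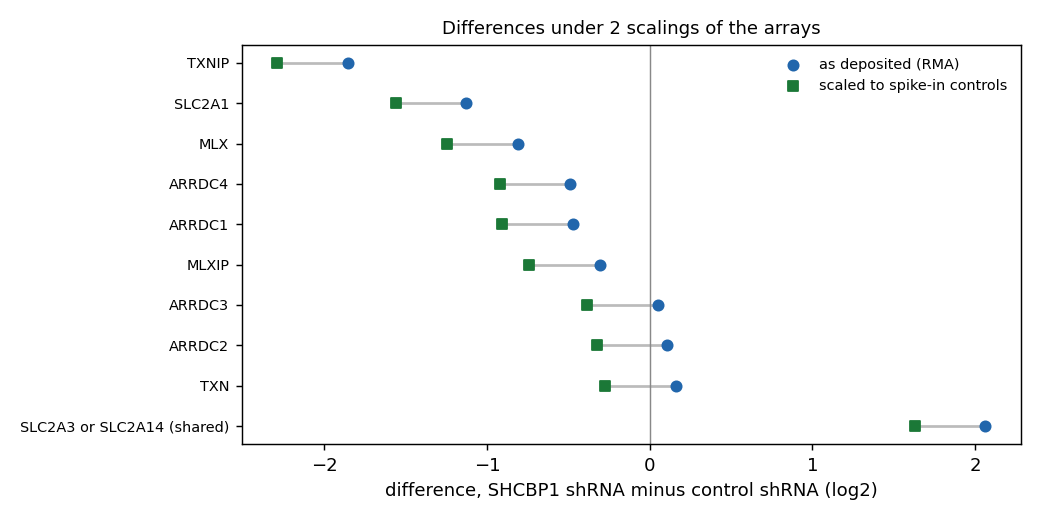
Difference between SHCBP1 shRNA and control shRNA arrays (log2, horizontal axis) in the deposited values (circles) and after the arrays were set to equal spike-in signal (squares). ARRDC3, ARRDC2 and TXN cross 0 with the scaling, and the other members do not.

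Other genes of the pathway were taken from 8 lists written by function, with 65 distinct genes of which 61 were tested. The lists were written with earlier results of these data known, so their counts and adjusted p-values are also a description. In all, 12 were called higher and 21 lower by limma, against 22.0% and 19.0% of all genes. The further partners of MLX were all lower: 4 of 4 were called, with a median difference of -0.29 log2. MXD1, a repressor that opposes MYC, fell by 0.66 ± 0.06 log2 (SE, adjusted p = 0.0001), and MLXIPL, which encodes the MondoA relative ChREBP, fell by 0.37 ± 0.04 (SE, adjusted p = 0.000341). MNT fell by 0.21 ± 0.05 (SE, adjusted p = 0.0105), with probe sets from -0.46 to 0.03. MXD4 stood at -0.10 ± 0.03 (SE, adjusted p = 0.0371), and its call was lost without any 1 of the 6 arrays, at -0.10 to -0.09. It was also lost with the replicate number as a block (-0.10), with the median of its probe sets (-0.06) and with _s_at and _x_at probe sets left out (-0.10), so the count of 4 includes a call that 9 of 14 settings ended.

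Genes known to answer to MondoA or ChREBP were split. Of 9 tested, 5 were called lower and 2 higher, with a median of -0.18 log2. FASN, the fatty acid synthase, and HK2, the hexokinase that traps glucose in the cell, had the largest falls, at -0.87 ± 0.04 and -0.85 ± 0.04 log2 (SE). FASN rests on 1 probe set, and those of HK2 ran from -1.23 to -0.48. ACACA, which supplies FASN with malonyl-CoA, fell by 0.26 ± 0.06 log2 (SE, adjusted p = 0.00982), with probe sets from -0.43 to 0.05. PFKFB3, which makes the activator of phosphofructokinase, was higher by 0.30 ± 0.04 log2 (SE, adjusted p = 0.00062). Its probe sets ran from -0.02 to 0.76, and without those ending in _s_at or _x_at it stood at -0.02.

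In the thioredoxin system 4 of 12 genes were called higher and 3 lower, with a median of 0.08 log2. TXNRD1, the reductase that recharges thioredoxin, was higher by 0.50 ± 0.03 log2 (SE, adjusted p = 1.36e-05) and all of its probe sets lay between 0.37 and 0.57. SRXN1, which repairs peroxiredoxins, and PRDX6, a peroxiredoxin, were higher by 0.28 ± 0.04 and 0.24 ± 0.03 log2 (SE). MAP3K5, the kinase ASK1 that thioredoxin holds inactive, fell by 0.52 ± 0.05 log2 (SE, adjusted p = 0.00018). With scaling to the spike-in controls TXNRD1 stood at 0.07 and was not called, and SRXN1 and PRDX6 stood at -0.16 and -0.19, both called lower.

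Most other glucose carriers did not pass the test. Of 14 tested, 1 was called higher and 2 lower, with a median of 0.01 log2. SLC2A10 fell by 0.52 ± 0.05 log2 (SE, adjusted p = 0.000109), with probe sets from -0.87 to -0.09. SLC2A8, an intracellular transporter, was higher by 0.44 ± 0.04 log2 (SE, adjusted p = 0.000132), and stood at 0.01, not called, with scaling to the spike-in controls. SLC2A12 stood at -0.16 ± 0.05 (SE, adjusted p = 0.0475). Its call was lost without SHCBP1 shRNA replicate 1 or 2 (-0.14 and -0.13) and without control replicate 2 or 3 (-0.16 and -0.12). It was also lost with array weights (-0.14), robust moderation (-0.16), the median of its probe sets (-0.16) and _s_at and _x_at probe sets left out (-0.16).

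Of 5 genes of glucose phosphorylation and its next step, 2 were called lower and 1 higher, with a median of -0.08 log2. HK2, given above, is among them. GPI, which turns glucose-6-phosphate into fructose-6-phosphate, stood at -0.16 ± 0.05 log2 (SE, adjusted p = 0.0289). That call was lost without SHCBP1 shRNA replicate 2 or 3 (-0.13 and -0.16) and without control replicate 1 or 3 (-0.15 and -0.12). HKDC1, a further hexokinase, was higher by 0.15 ± 0.03 log2 (SE, adjusted p = 0.0113), and stood at -0.29, called lower, with scaling to the spike-in controls.

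Ubiquitin ligases of the NEDD4 family, which alpha-arrestins recruit and of which ITCH is known to target TXNIP for degradation, were called lower in 5 of 9 cases and higher in 2. ITCH fell by 0.76 ± 0.04 log2 (SE, adjusted p = 4.17e-06), NEDD4 fell by 0.63 ± 0.05 (SE) and WWP1 fell by 0.52 ± 0.06 (SE). Probe sets of ITCH ran from -1.32 to -0.27 and those of WWP1 from -0.77 to -0.10, so neither gene had a probe set above 0. HECW2 was higher by 0.21 ± 0.04 log2 (SE), and stood at -0.22, called lower, with scaling to the spike-in controls.

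AMP-activated protein kinase, which phosphorylates TXNIP and so speeds its degradation, had 2 of 7 subunit genes called higher and 1 lower. PRKAA1, a catalytic subunit, was higher by 0.79 ± 0.05 log2 (SE, adjusted p = 9.9e-06), but its probe sets ran from 0.04 to 1.45. The regulatory subunit PRKAG2 was higher by 0.28 ± 0.04 and PRKAG1 fell by 0.26 ± 0.04 log2 (SE). PRKAG2 stood at -0.16, called lower, with scaling to the spike-in controls. Of the remaining arrestins, ARRB1 at -0.19 ± 0.07 log2 (probe sets -0.47 and 0.08) and ARRDC5 at 0.05 ± 0.07 log2 (SE) gave 0 calls by limma. Of the 2, ARRB1 had an unadjusted limma p under the threshold of 0.05, as did 8591 of 18132 genes. ARRB1 was called lower when _s_at and _x_at probe sets were left out (-0.47) and with scaling to the spike-in controls (-0.63).

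**Figure D5:**
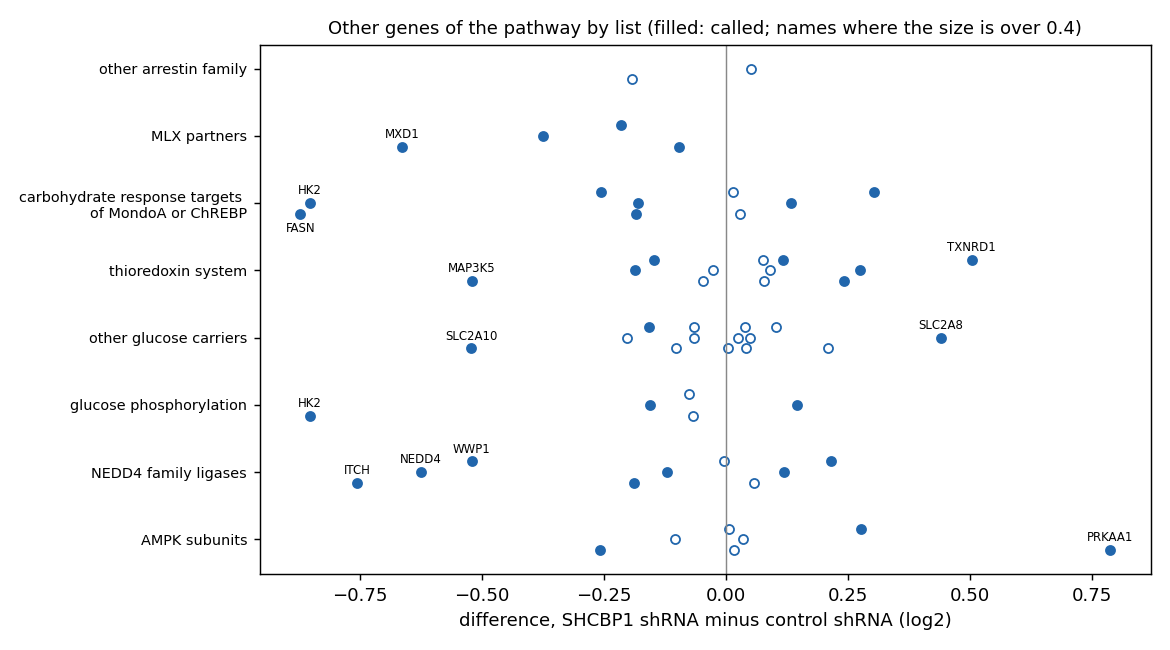
Difference between SHCBP1 shRNA and control shRNA arrays (log2, horizontal axis) of the other genes of the pathway, 1 row per list and 1 point per gene, filled where limma called the gene. The 4 partners of MLX all lie below 0, and the widest points are FASN at -0.87, HK2 at -0.85, PRKAA1 at 0.79 and ITCH at -0.76.

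Markers of the tissues of the 2 lines named in the labels were also measured, as change between the groups, which says nothing of which line was used. Of thyroid genes 1 of 7 was called and of colon epithelium genes 3 of 8, where 41.0% of all genes were. FOXE1 was higher by 0.24, CDX2 by 0.12 and LGR5 by 0.58 log2 in SHCBP1 shRNA arrays, and KRT20 fell by 1.09.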

How the data were processed

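Total RNA of 6 samples, 3 given an shRNA against SHCBP1 and 3 a control shRNA, was measured on 1 Affymetrix array each, with group and replicate taken from each title. The authors deposited 1 log2 value per probe set and array, made with RMA (background correction, quantile normalization, summarisation) per the submitters' processing notes. No source gives the base of the logarithm; that of RMA, log2, was assumed. In the table each probe set has a median of 0 over the arrays, a step that is not given in the sources used here. It removes brightness, so no filter on dim probe sets and no choice of the brightest could be made, and a shift of all genes is removed by the quantile step.

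Of 49395 probe sets, 44988 name 1 gene in the platform annotation. Of these, 44961 matched a RefSeq gene (GRCh38.p14, used for names and upstream sequences) and 0 symbols were updated. The 1832 that name several genes and 2473 that name none were left out, except the 5 shared by SLC2A3 and SLC2A14. Each of 18132 genes is the mean of its probe sets.

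Differences (SHCBP1 shRNA minus control shRNA) were fitted over all genes in R 4.3.3 with limma 3.58.1 (lmFit, then eBayes), unpaired, with Benjamini-Hochberg adjustment and a threshold of 0.05 for a call. Errors are limma's moderated standard errors; for the shared probe sets and the spike-in controls they come from the 2 group means alone. A second fit took all 49293 probe sets that are not controls. A simulation gave 18132 genes the spread within groups of this comparison and changed 200 of them. It called 48% of changes of 0.25, 82% of changes of 0.5 and 100% of changes of 1 on the log2 scale. Of its 179 calls, 14 were false. In the deposited values 41.0% of genes were called, a far larger share than was changed here. The simulated shares therefore do not carry over to this comparison. Arrays were not duplicates: over all probe sets, 2 arrays of the same group differed with an SD of 0.131 to 0.140 log2 and 2 arrays of different groups with 0.346 to 0.352.

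The members, the pathway lists, the tests and the motifs were chosen with earlier results of these data known. The text names all members, SHCBP1, up to 4 called genes with the largest change per list (up to 2 genes where fewer than 2 were called) and the 5 genes most like TXNIP. Cell line markers that were called were chosen after their values were seen. Same-numbered arrays of the 2 groups deviated from their group means with correlations of 0.02, -0.05 and 0.07, so the numbers were not taken as pairs. Alternatives were repeated quantile normalization, centring of arrays, scaling to the spike-in controls, array weights, robust moderation, the replicate number as a block, the median of probe sets, no _s_at or _x_at probe sets, and each array left out in turn. The number of arrays limits the precision.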

Additional observations from a re-analysis of the deposited data

Results flagged for a closer look

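Signal outside the rule was found in the probe sets that name SLC2A3 together with SLC2A14. They belong to no gene of the main comparison, yet all 5 were higher in the SHCBP1 shRNA arrays than in the control shRNA arrays, with groups that did not overlap. The differences were 1.92 log2 for 11736556_s_at, 1.99 for 11752739_s_at, 2.0 for 11734657_s_at, 2.16 for 11747751_s_at and 2.24 for 11736555_s_at. All 5 end in _s_at, which Affymetrix uses for probes shared between transcripts. Groups of 3 arrays were not tested for samples far from the others.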

How the results depend on the processing

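The 6 members called lower kept that call under each alternative that refitted whole genes and had a value for them. ARRDC1 had no value when _s_at and _x_at probe sets were left out, so 5 members were called lower there. Of single probe sets, the highest of MLXIP (-0.011) was not called, while the lowest and highest of the other 5 were. The lowest probe set of TXN (0.03) was not called. TXNIP stayed between -2.29 (spike-in scaling) and -1.63 log2 (its highest probe set). Without 1 array its difference ran from -1.88 to -1.83. The count of members called higher depended on the setting and was 2 in the deposited values. It was 1 after repeated quantile normalization, after centring of arrays and with the replicate number as a block (replicate block). With scaling to the spike-in controls it was 0, and also 0 when _s_at and _x_at probe sets were left out. That last setting leaves no probe set for TXN and ARRDC1, and ARRDC2 (0.11) kept its probe set but lost its call. Without 1 array the count of members called higher was 1 to 2, and the count of members called in all was 7 to 8. With _s_at and _x_at probe sets left out, that count was 5, against 8. Scaling to the spike-in controls called 16709 genes in place of 7440 (441 higher and 16268 lower) and 57 in place of 33 genes of the pathway lists. It reversed TXN (-0.27), ARRDC2 (-0.32), ARRDC3 (-0.38), ARRDC5 (-0.38), PFKFB3 (-0.13), SRXN1 (-0.16), PRDX6 (-0.19), HKDC1 (-0.29), HECW2 (-0.22) and PRKAG2 (-0.16). All of these except PFKFB3 were called lower with that scaling. PFKFB3 was also reversed with _s_at and _x_at probe sets left out (-0.018). The replicate block left 7092 genes called. Apart from the shift that spike-in scaling gives all genes by construction, the cause of these changes was not tested. Centred values show nothing of signal over background, so a dim probe set cannot be told from a bright one.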
